A study of Arabidopsis thaliana with 4 samples.

Results

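The genes AT1G72290, GRI, AT3G12000, CES and INO are known for, or belong to families known for, roles in the gynoecium, the female organ of the flower, or in its stigma. They were taken by locus and are 5 of the 5386 Arabidopsis thaliana genes with a probe of their own and a value on all 4 arrays. AT1G72290, GRI, AT3G12000 and CES were each measured by 1 such probe, and INO by 3. The genes were gathered with their ratios in these data already known, as genes that stayed level or lay higher in the mutant, so the ratios below are a description and carry no test.

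Total RNA of inflorescences from the pistillata mutant was set against that of wild-type inflorescences on 4 spotted arrays with 2 channels, the genotypes sharing each array. The sources used here do not give the pistillata allele, the strains, the growth stage, the dyes or any treatment. Whether separate plants were grown for each array is unstated, so the spread between arrays may be technical, and their number, 4, limits the precision. The values are log2 ratios as the authors deposited them, with the set number in the labels used here as the array number.

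PISTILLATA is a B-class floral organ identity factor. Petals and normal stamens are missing from flowers of the mutant, while the gynoecium is still made. The gynoecium of Arabidopsis arises from fused carpels. Its stigma catches pollen, its transmitting tract guides pollen tubes through the style and ovary, and the integuments of its ovules become the seed coat. Whole inflorescences were measured, so a larger share of gynoecium cells and more RNA per cell cannot be told apart, and no value here locates a transcript in the gynoecium.

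The sign of the ratios was not settled by the labels. Over the 25018 gene probes free of capped values, the deposited ratios of array 1 had a Pearson's r of -0.71 with those of array 2, -0.68 with array 3 and 0.71 with array 4. Array 2 had an r of 0.77 with array 3 and of -0.68 with array 4, and array 3 had -0.69 with array 4. The probes over which these correlations run are not independent replicates. With capped probes included (26156 probes), array 1 had an r of -0.30 with array 2, -0.29 with array 3 and 0.49 with array 4. Arrays 2 and 3 then had an r of 0.65, but array 4 had -0.05 with array 2 and 0.0057 with array 3. The opposition of array 4 to arrays 2 and 3 was thus clear only without capped probes. The labels instead set arrays 1 and 3 against arrays 2 and 4. Arrays 1 and 4 were multiplied by -1, which puts the anther genes SWEET8, SHT, ATA20 and TUA1 below 0 on every array, with mean log2 ratios between -3.71 and -0.47. The sign of those 4 genes was built in. Ratios are given in this likely direction as log2 of pistillata over wild type, and with the common sign exchanged every value and rank below would be turned round.

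A group of 4 of the genes lay higher in pistillata inflorescences on all 4 arrays, and INO lay close to 0. AT1G72290 had the highest mean of the 5, at 4.13-fold, followed by GRI at 3.92-fold, AT3G12000 at 3.51-fold and CES at 2.85-fold. By limma over all genes, 4 of the 5 passed an adjusted p of 0.05 as higher and 0 as lower, where 2.75% of all genes were called higher. As the choice of the genes used this comparison, nothing is read from that count. It was 4 without array 1, 2 without array 2, 2 without array 3 and 3 without array 4. AT1G72290 and AT3G12000 were called in each of these fits, CES only in the one without array 1, and GRI in those without array 1 or 4. With a term for channel orientation in the fit CES was not called, and with shared probes averaged in GRI was not, which left 3 of the 5 in either case.

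**Figure D1:**
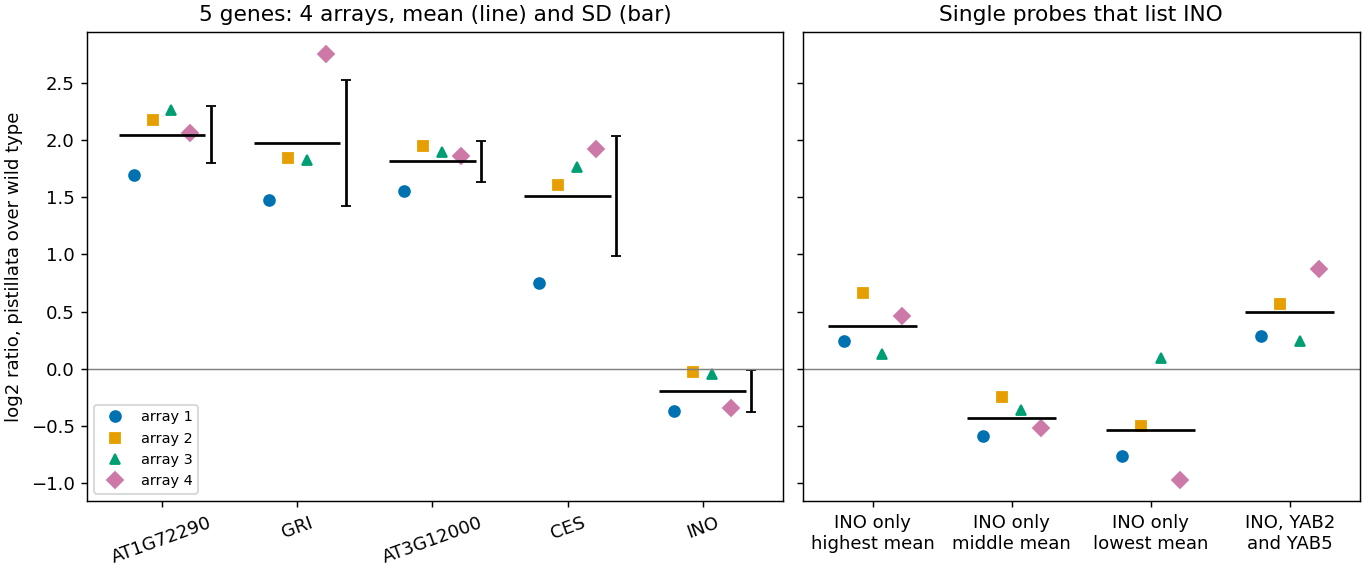
Log2 ratio of pistillata over wild type (vertical axis) on each of the 4 arrays for the 5 genes (left, ordered by mean, with the mean as a line and the SD over 4 arrays as a bar) and for the 4 single probes that list INO (right, with the mean as a line). AT1G72290, GRI, AT3G12000 and CES lie above 0 on all arrays with their lowest value on array 1, and the probes that list INO alone lie on both sides of 0.

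AT1G72290 belongs to the Kunitz family, whose members are known as inhibitors of proteases. Arrays 1 to 4 gave log2 ratios of 1.69, 2.17, 2.26 and 2.06, a mean of 2.05 ± 0.25 (SD, n = 4). Every array showed at least a 3.23-fold higher level in pistillata, and array 1 stood below the other 3. Among the 5386 genes its value ranked 54th, 174th, 157th and 20th from the top on arrays 1 to 4.

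The rank of its mean depended on capped values. The deposited ratios stop at 6.64 on either side of 0, and 51 of the 52 genes with a higher mean than AT1G72290 had a probe with a value at such a cap. Among the 5133 genes without one, AT1G72290 was 2nd from the top. It was also 2nd of all 5386 genes by the lowest of the 4 ratios, after AT4G00910.

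GRI, or GRIM REAPER, encodes the precursor of an extracellular peptide that promotes cell death in leaves, and is related to STIG1, a protein named for the tobacco stigma. The log2 ratios on arrays 1 to 4 were 1.47, 1.84, 1.82 and 2.75, a mean of 1.97 ± 0.55 (SD, n = 4). Arrays 2 and 3 nearly coincided, array 1 lay below them and array 4 lay above them, at 6.75-fold. Without array 4 the mean was 1.71. Its SD was larger than that of 81.9% of all genes, and its mean was 4th from the top among genes with no capped value.

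A further probe lists GRI together with the related genes AT4G26880 and AT5G55110, and so names none of them. Its log2 ratio was 2.59 on array 1 and 4.49 on array 3, but -0.14 on array 2 and 0.0044 on array 4. It was high on arrays 1 and 3 only, whereas the GRI probe was high on all 4. Arrays 1 and 3 share a channel order in the labels, and the values as deposited there were -2.59 and 4.49. The cause of this pattern was not tested. Averaging both probes gave GRI a mean of 1.85 with an SD of 0.99 (n = 4).

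AT3G12000 is an S-locus related gene. S-locus glycoproteins are best known from the stigma of Brassica, where the S locus governs recognition of self pollen. It had log2 ratios of 1.55, 1.94, 1.90 and 1.86 on arrays 1 to 4, a mean of 1.81 ± 0.18 (SD, n = 4). The last 3 arrays lay within 0.09 of one another, and array 1 was the lowest. Its SD compares with a median of 0.29 over all genes and of 0.68 over the 72 genes with a mean of at least 1 and no capped value.

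CES, or CESTA, is a bHLH transcription factor of brassinosteroid signalling that acts with its relatives BEE1 and BEE3 in the growth of the transmitting tract. On arrays 1 to 4 its log2 ratios were 0.75, 1.61, 1.77 and 1.92, a mean of 1.51 ± 0.52 (SD, n = 4). Array 1 gave 1.68-fold, and the other arrays gave 3.04-fold to 3.79-fold. Without array 1 the mean was 1.76 ± 0.16 (SD, n = 3). The share of all genes with a ratio at or above that of CES was 13.2% on array 1, 4.18% on array 2 and 3.34% on array 3. On array 4 CES ranked 25th from the top. There 0.52% of genes reached the lowest of these 4 raised genes, which was AT3G12000.

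INO, or INNER NO OUTER, is a YABBY transcription factor needed for the outer integument of the ovule. Averaged over its 3 probes, its log2 ratio was -0.37, -0.03, -0.05 and -0.34 on arrays 1 to 4, a mean of -0.20 ± 0.18 (SD, n = 4). The levels were thus close to equal on arrays 2 and 3, and pistillata had 0.775 of the wild-type level on array 1 and 0.789 of it on array 4. Arrays 1 and 4 are the turned ones, and their mean was -0.35, against -0.04 for arrays 2 and 3. The median of all genes was 0.16, and 75.0% of genes had a mean within 0.5 of 0.

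The INO mean hides probes that differ in sign. The probe with the highest mean had 0.25, 0.66, 0.12 and 0.46 on arrays 1 to 4, a mean of 0.37 ± 0.24 (SD, n = 4). The probe with the middle mean had -0.58, -0.25, -0.36 and -0.52, a mean of -0.43 ± 0.15, and the third had -0.76, -0.50, 0.09 and -0.97, a mean of -0.54 ± 0.46 (SD, n = 4 each). The first of these lay above both others on all 4 arrays, by 0.80 ± 0.22 over the middle probe and by 0.91 ± 0.61 over the third (SD, n = 4 each).

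One more probe, which lists INO with the family members YAB2 and YAB5, had 0.29, 0.57, 0.24 and 0.87 on arrays 1 to 4 and a mean of 0.49 ± 0.29 (SD, n = 4). It therefore had the sign of the positive INO probe, and it was not called over all probes (limma adjusted p = 0.104). The rest of the YABBY list was not analysed here. The gap of 0.91 between the highest and lowest INO probe means was reached by 43 of the 281 genes with several probes (15.3%), whose median gap was 0.23. Among the 25 genes with 3 probes or more, as INO has, 10 had a gap at least as large. The sources used here do not say which transcript region each INO probe covers. The size and direction of the INO ratio thus rest on the choice of probe.

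The order by mean was AT1G72290, GRI, AT3G12000, CES and INO, but neighbours among the first 4 did not differ beyond their spread. AT1G72290 exceeded GRI by 0.07 ± 0.52 and GRI exceeded AT3G12000 by 0.16 ± 0.49 (SD of the array differences, n = 4 each). GRI was in fact below AT3G12000 on 3 of the 4 arrays, and only array 4 put it ahead. AT3G12000 exceeded CES by 0.30 ± 0.37, with CES ahead on array 4 alone. AT1G72290 was above AT3G12000 on all 4 arrays, by 0.23 ± 0.10, and above CES by 0.54 ± 0.33 (SD, n = 4 each). CES lay above INO on all arrays, by 1.71 ± 0.47 (SD, n = 4), the only step between neighbours that was larger than its spread.

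All 4 raised genes had their lowest value on array 1. Among the 235 genes with a mean of at least 1, 35.7% had theirs there. Of those genes 163 had a probe at a cap, unlike the 4 raised genes, so that share is not a like background. Array 1 also had the widest spread over all gene probes, with a robust SD of 0.61 log2 units, where arrays 2 to 4 had 0.39, 0.43 and 0.45. The part of that spread in the lower values was not tested. Without array 1 the means were 2.16 for AT1G72290, 2.14 for GRI, 1.90 for AT3G12000, 1.76 for CES and -0.14 for INO.

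**Figure D2:**
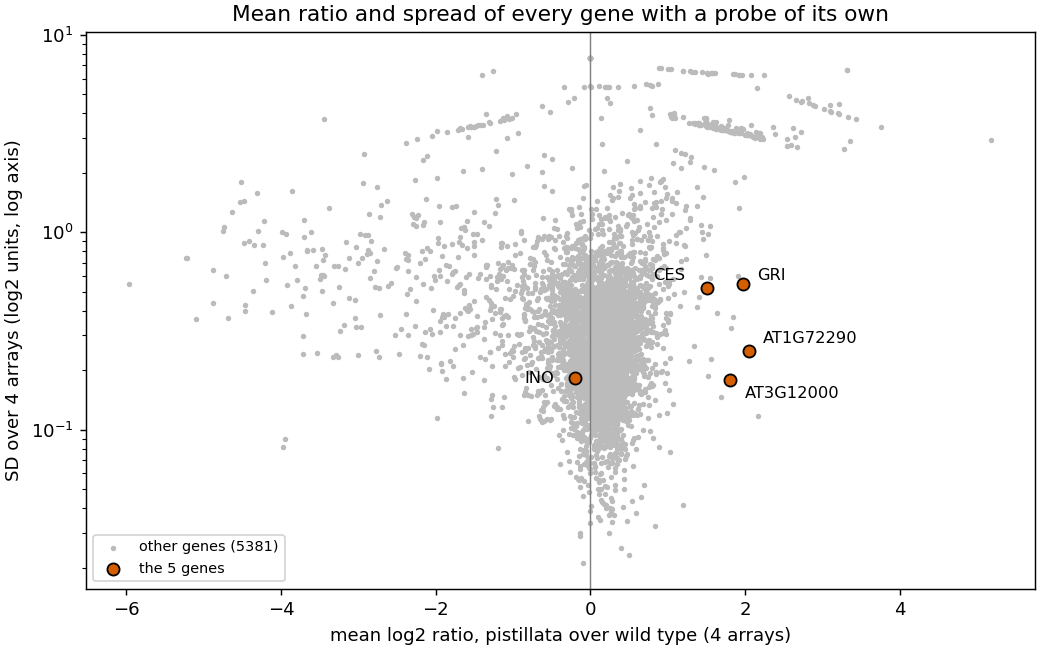
Mean log2 ratio of pistillata over wild type (horizontal axis) against the SD over 4 arrays (vertical axis, logarithmic, log2 units) for 5386 genes, with the 5 genes in colour. AT1G72290, GRI, AT3G12000 and CES stand at means of 1.51 or more, GRI and CES with a larger SD than AT1G72290 and AT3G12000, and 51 of the 52 genes with a mean above that of AT1G72290 have a value at a cap.

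Ratios of at least 2-fold on every array were rare on the higher side. They were found for 15 of the 5386 genes (0.278%), against 207 genes at least 2-fold lower on every array. AT1G72290, AT3G12000 and GRI were among the 15, in the 2nd, 6th and 8th place by their lowest ratio. CES was not, because of array 1, and stood 34th by that measure. As the genes were gathered with these ratios known, nothing is read from their places among the 15.

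The genes with the most similar values were found by the root mean square difference of the log2 ratio over the 4 arrays, among 5381 genes. Nearest to AT1G72290 were the adjacent loci AT4G00910, at a difference of 0.27, and AT4G00920, at 0.28, with means of 2.17 and 1.82. AT4G00920 was also nearest to AT3G12000, at 0.16, followed by AT5G53710 at 0.24. GRI was nearest to AT5G38900, at 0.23, which also had its highest value, 2.38, on array 4, and then to AT4G00920 at 0.45.

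CES was nearest to AT5G53720, at 0.25, and AT4G18540, at 0.36, which had 0.70 and 0.66 on array 1 and 1.39 or more on the others. Few genes lay this close to the raised genes, with 0 within 0.25 of AT1G72290, 1 each for CES and GRI and 2 for AT3G12000. INO had 372 such genes, led by AILP1 and AT1G21790 at differences of 0.05. Such counts follow from where a gene lies, as 75.0% of all genes had a mean within 0.5 of 0, so nothing is read from them. Nearness over 4 arrays describes these ratios alone.

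**Figure D3:**
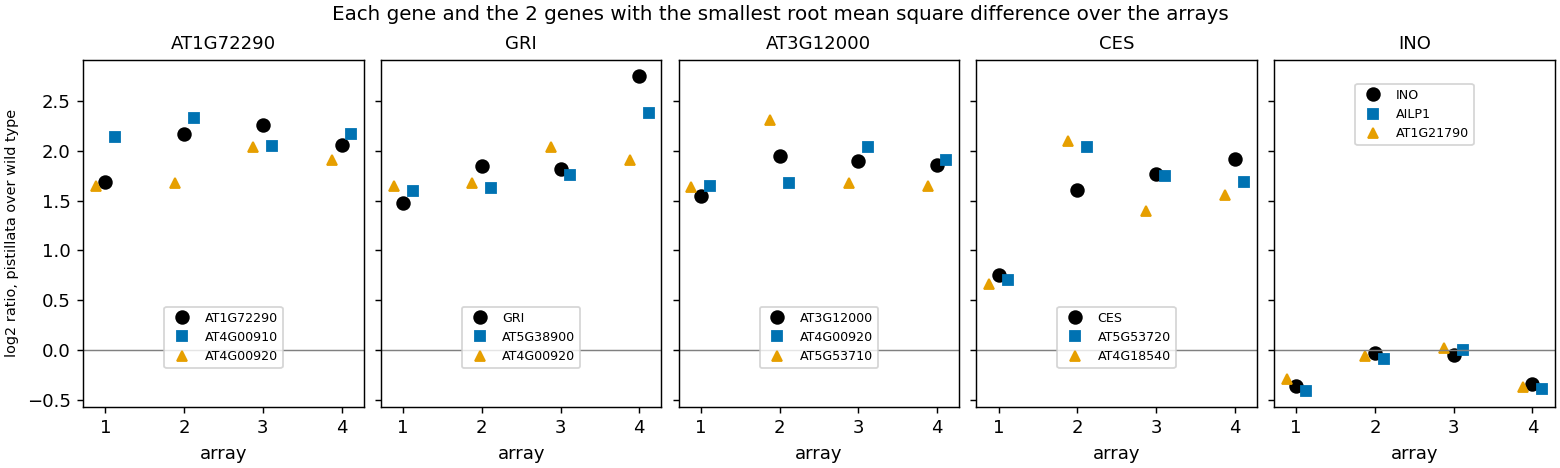
Log2 ratio of pistillata over wild type (vertical axis) on arrays 1 to 4 for each of the 5 genes (black circles) and the 2 genes nearest to it (squares for the nearest, triangles for the next, shifted sideways). CES and both of its nearest genes lie between 0.66 and 0.75 on array 1 and at 1.39 or more on the other arrays, and INO and its neighbours stay within 0.5 of 0.

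Relatives and partners of the 5 genes were taken from lists drawn up by family or known role. The 5 genes themselves were gathered with their ratios known, so nothing is read from relatives that lie below the raised ones. By limma over all genes, 2 of the 11 list genes with a probe of their own were called higher and 0 lower, where 2.75% of all genes were higher and 5.79% lower. Both called genes were of the S-domain list, which holds receptor kinases and S-locus-like proteins, the wider family of AT3G12000.

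Of the 35 loci of the S-domain list, 8 had a probe of their own, with a median log2 ratio of 0.48, against 0.16 over all genes. The list leaves out AT1G11280, which shares probes with several of the listed genes. The probe of AT1G11280 alone had a mean of -0.03 ± 0.32 (SD, n = 4; limma adjusted p = 0.897). The median thus depends on which loci were listed. AT4G11900 had 0.87, 0.82, 1.05 and 1.25 on arrays 1 to 4 and a mean of 0.997 ± 0.19 (SD, n = 4; limma adjusted p = 0.0119). AT1G61430 had 0.70, 0.70, 0.62 and 0.62 and a mean of 0.66 ± 0.05 (SD, n = 4; limma adjusted p = 0.0178). Both were above 0 on all 4 arrays and below AT3G12000 on each of them.

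Both calls were lost without some of the arrays. Leaving out arrays 1 to 4 in turn, the limma adjusted p of AT4G11900 was 0.047, 0.0559, 0.0701 and 0.0467, and that of AT1G61430 was 0.061, 0.115, 0.0961 and 0.0708. A probe shared by AT1G61430, AT1G61400 and AT1G61440 had a mean of 0.42. A probe shared by AT4G11900 and AT1G61550 had 0.70, 0.65, -0.31 and 0.71 on arrays 1 to 4, so it crossed 0, and its mean of 0.44 was not called over all probes (limma adjusted p = 0.246). The other 6 genes had means from -0.13 for AT1G61360 to 0.95 for AT4G27300, and 6 of 6 were not called. Over 27 probes that list a member alone or with other genes, 3 were called higher and 0 lower by limma over all probes, where 2.98% of all probes were higher and 7.23% lower.

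For the STIG1-like family of GRI, 2 of 5 other loci had a probe of their own and 0 were called by limma. AT1G50650 had a log2 ratio of 0.99, -0.14, 0.59 and 0.58 on arrays 1 to 4 (mean 0.50 ± 0.47), and AT1G11925 had 0.24, -0.07, -0.81 and 1.25 (mean 0.15 ± 0.85; SD, n = 4 each). Both crossed 0, unlike GRI. A probe that lists these 2 genes with AT1G50720 had 0.54, 0.31, 0.51 and 0.24 on arrays 1 to 4 (mean 0.40 ± 0.15; SD, n = 4), above 0 on each, and was not called over all probes (limma adjusted p = 0.0872). Another probe, shared by AT1G50720, AT4G26880 and AT5G55110, stood at the upper cap on arrays 2 and 3 but at -0.11 and 0.10 on arrays 1 and 4, so it has only a bound on 2 arrays.

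The regulators that work beside CES in the transmitting tract were covered by shared probes alone. A pair of probes lists the bHLH factors SPT, which promotes carpel margin and transmitting tract growth, and ALC, which acts in fruit opening. Their means were 0.76 ± 0.38 and 0.65 ± 0.28 (SD, n = 4 each), above 0 on all 4 arrays, and 0 of 2 were called over all probes (limma adjusted p = 0.0643 and 0.0588). The other loci of that list, BEE1, BEE3, NTT and the HEC genes among them, were not analysed here, nor were RD21A, a cysteine protease, and PRK5 and MC9, the receptor and the protease of the GRI peptide.

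For stigma and style, 4 shared probes list the NGATHA genes, factors that specify the style and stigma. One of the pair that lists NGA3 and NGA4 was called higher, with 0.91, 0.59, 0.94 and 1.02 on arrays 1 to 4 and a mean of 0.87 ± 0.19 (SD, n = 4; limma adjusted p = 0.0161 over all probes). The other had a mean of 0.54 ± 0.38 and was not called (limma adjusted p = 0.122). The probes that list NGA1 and NGA2 had means of 0.33 and -0.06 and were not called. Of the 4 probes 1 was thus called higher and 0 lower, where 2.98% of all probes were higher and 7.23% lower. STY1, STY2, SHI and LUG of the same list were not analysed here. All 4 NGATHA probes lay below CES and the other raised genes in mean ratio, but those genes were gathered with their ratios known.

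Of the 14 loci of the ovule list only SPL, a regulator of early ovule and anther development, had a probe of its own. Its log2 ratio was -0.15, 0.26, -0.43 and -0.65 on arrays 1 to 4, a mean of -0.24 ± 0.39 (SD, n = 4; limma adjusted p = 0.382), so it lay beside INO and was not called. SPL acts in both organs, and its level cannot be assigned to either. A pair of probes that list HLL, a mitochondrial ribosomal protein needed for ovule growth, with AT5G46160 both had a mean of 0.39, but ranged from 0.10 to 0.64 on one and from -0.61 to 2.56 on the other. Neither was called over all probes (limma adjusted p = 0.122 and 0.683).

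Of 6 other Kunitz loci, AT3G04320 and AT3G04330 shared a probe with values on all 4 arrays, whose ratios ran from -0.85 on array 1 to 0.48 on array 2 with a mean of 0.05 ± 0.62 (SD, n = 4; limma adjusted p = 0.917 over all probes). The remaining loci were not analysed here. AT1G72290 was therefore the only gene among these Kunitz loci with a value of its own.

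**Figure D4:**
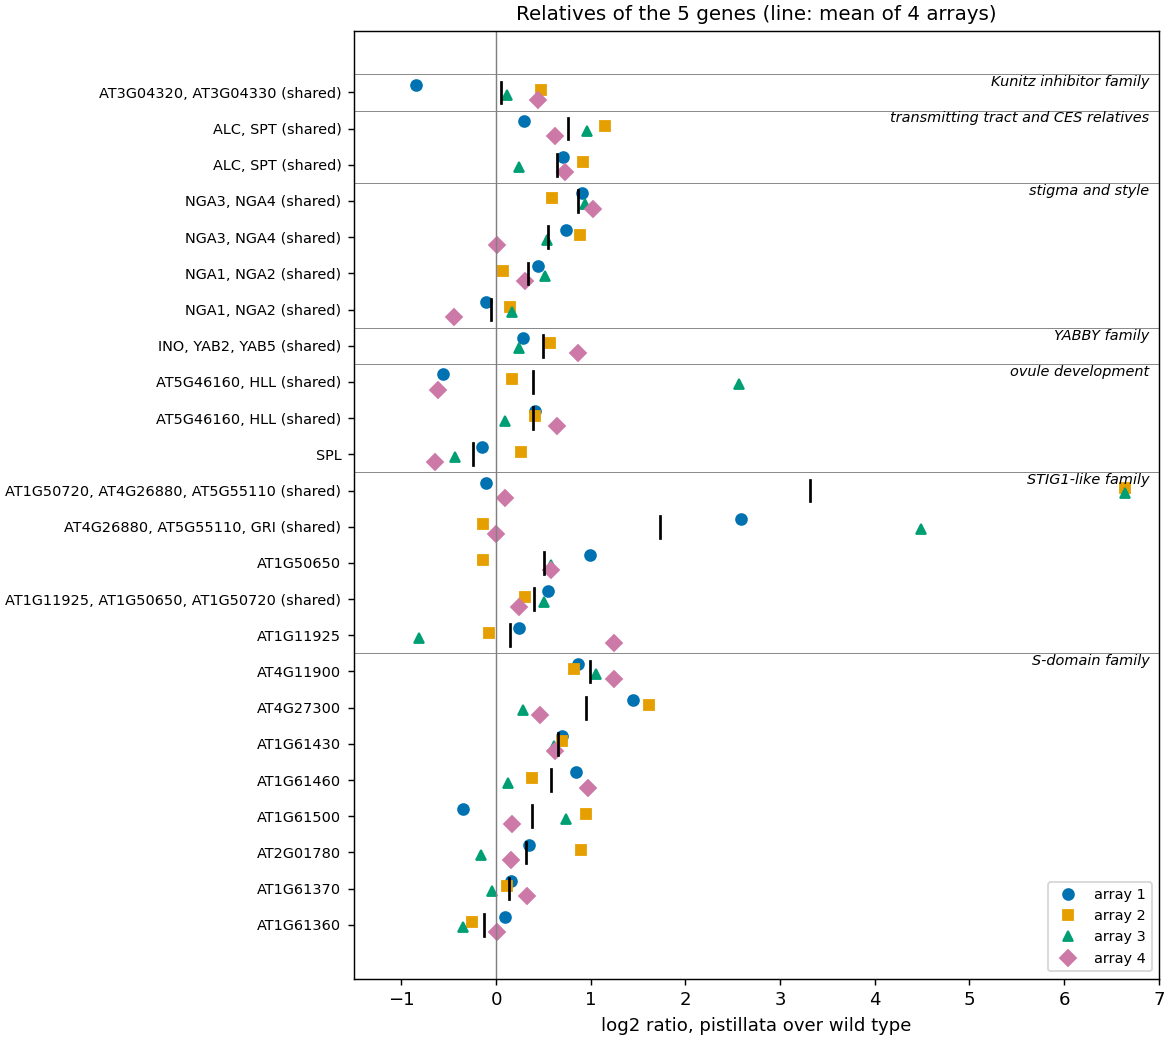
Log2 ratio of pistillata over wild type (horizontal axis) on 4 arrays for relatives of the 5 genes, by list. Rows named by 1 gene are genes with a probe of their own, rows marked shared are single probes that list several genes (those of the S-domain list are left out), and the line is the mean. Most means lie between 0 and 1, below those of the 4 raised genes, which were gathered with their ratios known. The ratios of 2 of the shared STIG1-like probes are high on 2 arrays and near 0 on the others.

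The chromosomal neighbours of GRI, AT3G12000 and INO that had a probe of their own were not called by limma. AT1G53120, next to GRI, had a mean of 0.32 ± 0.05 and AT3G12010, next to AT3G12000, a mean of 0.15 ± 0.08 (SD, n = 4 each; limma adjusted p = 0.0972 and 0.305). AT1G23410, next to INO, had a mean of -0.16 ± 0.29 (SD, n = 4; limma adjusted p = 0.469). The neighbours of AT1G72290 and CES were not analysed here, and these pairs were chosen by position after the ratios were seen.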

How the data were processed

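The authors deposited log2 ratios of the channels of 4 arrays, normalized by the method of a study they cite per the labels. The sources used here do not give the numerator, background correction or centring. Medians of the main-set probes as deposited were -0.12, 0.14, 0.11 and -0.08 on arrays 1 to 4. The caps at 6.64, the log2 of 100, gave the scale. No signals or depths belong to the values.

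Of 26474 gene probes, 5784 list 1 gene in the platform annotation, 7497 several and 13193 none. Genes were named only from the first kind, through gene numbers in the TAIR10.1 gene table, used for names and neighbours. Probes of a gene were averaged.

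All genes were fitted with limma 3.58.1 in R 4.3.3 (intercept over the turned ratios, eBayes, two-sided, Benjamini-Hochberg adjustment, threshold 0.05), a script tested on simulated data. The members and lists were chosen with earlier results of these data known. The named genes are the members, the measured list genes and the 2 nearest genes of each member. Neighbouring loci were added later. A planned search for promoter motifs was not run, since no sequences were used here.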

Additional observations from a re-analysis of the deposited data

Results flagged for a closer look

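AT5G53710, one of the genes nearest to AT3G12000, had a log2 ratio of 2.31 on array 2, apart from its 3 other values, with a gap of 0.941 of the range. Of the 44 sets of 4 values examined it was the only one so far apart, where chance alone gives about 1 in 20.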

How the results depend on the processing

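Across the 5 genes, median centring, centring with scaling, leaving out capped probes and the median of a gene's probes moved no mean by more than the SD over arrays. Leaving out each array gave means of 1.97 to 2.16 for AT1G72290, 1.77 to 1.90 for AT3G12000, 1.37 to 1.76 for CES, 1.71 to 2.14 for GRI and -0.25 to -0.14 for INO. INO stood at -0.54 with 1 probe a gene and at -0.02 with shared probes included. Turned by the labels' channel order, the means were 0.12 for AT1G72290, 0.33 for CES, 0.0015 for INO, 0.31 for GRI and 0.0653 for AT3G12000, with 0 genes and 0 list genes called by limma (18 and 0 at an unadjusted p under 0.05). The arrays then cancel by construction. With the common sign exchanged they were -2.05, -1.51, 0.20, -1.97 and -1.81, and the 460 called genes and 2 called list genes changed direction. The 460 called genes (148 higher, 312 lower) became 726 without capped probes (311 higher), 760 with array weights (365 higher), 1749 of 13968 with shared probes and 180 to 235 without 1 array. After median centring 76 were higher and 353 lower. Called list genes were 6 with shared probes and 0 to 1 without 1 array. Each ratio already pairs the genotypes within its array. No further pairing between arrays was made, because the arrays form a single group. The cause of these shifts was not tested.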
